A study of Equus caballus with 37 samples.

Results

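The genes described here set the blood of untrained Arabian horses apart from blood taken in every training period. They form 2 sets of 100 genes, drawn from 26991 genes in the count table, of which 12025 passed the filter on low counts. A member had a mean of at least 2 on the log2 CPM scale (CPM, counts per 1000000 counts of the scaled library total), and its medians in the 3 training periods lay within 0.5 log2 units of each other. The 100 genes higher in trained horses were those whose lowest training median exceeded the untrained median the most, by at least 0.4 log2 units. The 100 genes lower in trained horses were those whose untrained median exceeded the highest training median the most, by the same least difference. Genes whose identifiers the study printed were left out. The members were therefore chosen on the measured values of these libraries, and their differences between untrained and trained horses are given as a description.

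Jugular blood was collected into Tempus tubes, which lyse all blood cells at once. Libraries were made from total RNA with a TruSeq RNA kit (v2) and sequenced as 75 bp single-end reads without strand information. T0 held 6 libraries of untrained horses (2 mares and 4 stallions by label), aged 2.5 years except replicate 2, which was labelled as 3 years old. The training groups were horses 3 years of age in preparation for flat racing. They were sampled after a slow canter phase (T1, March, 5 mares and 7 stallions), after an intense gallop phase (T2, May, 4 and 7) and when the racing season had ended (T3, October, 4 and 4). No label gives a month for T0. The 31 training libraries came from repeated sampling of 12 horses, but no label names a horse, so the tests below treat libraries as independent animals. The untrained horses were mostly younger, and per the study's methods some of them never entered training. The study's read statistics place all T0 libraries in sequencing pools 3 and 4, and spread the training libraries over all pools. Training, age, season, the horses themselves and in part the pool therefore cannot be told apart between T0 and the training periods.

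Whole blood RNA comes from several cell types: neutrophils and monocytes of innate immunity, lymphocytes of adaptive immunity, platelets, and young red cells that still carry transcripts. In horses the spleen stores red cells and releases them during effort, whereas per the study's methods blood was drawn here before training, after the morning feed. In such a mixture fewer cells of a type and less RNA per cell cannot be told apart. The count table gives Ensembl gene identifiers with no names, and the reference table at hand paired none of them with a symbol. The functions of the members are therefore not stated, and 18 lists of blood cell markers and pathways could not be applied. Only the 2 leading genes of each set are named, by identifier, and the remaining members are described by their rank, level and subgroup. No sequence is given for the same reason.

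Library totals ranged from 3810631 to 14932603 counts with a median of 10611594, at which 1 CPM rests on about 10.6 counts. The TMM factor, which scales a library's total by the bulk of its genes and falls when a few genes take up many counts, was 1.17 to 1.24 in T0, 0.410 to 1.14 in T1, 0.949 to 1.21 in T2 and 1.05 to 1.25 in T3. Replicates 1, 2, 3, 4 and 11 of T1 had factors below 0.75 and stood apart. In the study's read statistics, listed in the same order, these libraries had the lowest shares of uniquely mapped reads in T1. Replicates 1 to 4 were also the only T1 libraries of sequencing pool 1. The parts of mapping and pool in the factor were not tested. The sex labels were checked with the gene that differed most between the sexes, which had 0 to 9 counts in the 15 libraries labelled as mares and 29 to 206 counts in 20 of the 22 labelled as stallions. T1 replicate 8 and T3 replicate 3, both labelled as stallions, had at most 1 count of it and went against their label.

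Of the 12025 genes, 3387 met the limits on level and on the range of the training medians and were not printed by the study. The untrained median lay below all 3 training medians in 1113 of these, above all 3 in 1169 and between them in 1105. The required difference was met by 256 genes higher in trained horses and by 102 genes lower in trained horses. The 99th and 100th members of the higher set differed by 0.599 and 0.598 log2 units, and the next 2 genes, which were not taken, by 0.597 and 0.592. In the lower set the 99th and 100th members differed by 0.404 and 0.403, the 101st and 102nd genes by 0.403 and 0.401, and the 103rd, at 0.399, was below the limit.

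Both sets were unequal in size of change and in expression level. The difference was 0.60 to 2.48 log2 units with a median of 0.77 among the genes higher in trained horses, and 17 of them differed by at least 1. Among the genes lower in trained horses it was 0.40 to 1.21 with a median of 0.50, and 3 of them differed by at least 1. The higher set had the higher CPM, with a median level of 5.67 log2 CPM against 3.57 in the lower set. The median was 4.10 over all 12025 genes and 4.96 over the 3387 eligible ones. CPM is not divided by transcript length, so these values do not compare the abundance of transcripts. A mean of at least 8 log2 CPM was reached by 20 genes of the higher set and by 1 gene of the lower set. The spread between libraries of a period was near that of genes in general, with a median SD of 0.51 in the higher set, 0.47 in the lower set and 0.50 over all genes, while the eligible genes had a median SD of 0.33. Of the members, 90 in the higher set and 74 in the lower set had at least 6 counts in every library. A count of 0 occurred in 2 members of the higher set and 4 of the lower set, each time in T1 replicate 11.

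The leading gene of the higher set was ENSECAG00000000288. Its level in T0 was 4.12, 3.84, 1.44, 1.76, 1.22 and 1.88 CPM in replicates 1 to 6, from 17 to 53 counts. In T1 its lowest, median and highest levels were 3.15, 11.2 and 65.9 CPM. T2 spanned 4.23 to 32.1 CPM with a median of 11, and T3 spanned 3.16 to 47.2 CPM with a median of 14.1. Only replicates 1 and 2 of T0 reached the lowest training libraries, and the training libraries were spread widely, from 3.15 to 65.9 CPM.

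The second gene of the higher set, ENSECAG00000014278, had 9.65, 3.52, 6.13, 1.90, 3.15 and 2.04 CPM in the 6 untrained libraries. Its lowest, median and highest levels were 4.11, 20.2 and 39.4 CPM in T1, 5.27, 18.3 and 74.9 CPM in T2, and 9.94, 25.8 and 47.7 CPM in T3. All 31 training libraries lay above the T0 median of 3.34 CPM, and replicates 1 and 3 of T0 overlapped with the lowest libraries of T1 and T2. T3 did not overlap with T0 for this gene.

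The leading gene of the lower set was ENSECAG00000012217. It had 142, 112, 111, 174, 30.5 and 132 CPM in replicates 1 to 6 of T0. Its lowest, median and highest levels were 21.5, 53.7 and 621 CPM in T1, 19.4, 52.4 and 227 CPM in T2, and 5.63, 41.0 and 157 CPM in T3. No library lay between 67.7 and 111 CPM. Above this gap were 5 of 6 libraries in T0, 5 of 12 in T1, 4 of 11 in T2 and 3 of 8 in T3. The T0 median thus fell above the gap and the 3 training medians below it. The means of 117 ± 48.4 CPM in T0 (SD, n = 6) and 128 ± 168 CPM in T1 (SD, n = 12) did not follow the medians.

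For ENSECAG00000015083, the second gene of the lower set, the 6 untrained libraries held 10.2, 6.17, 14.7, 11.1, 11.7 and 2.86 CPM. T1 spanned 3.38 to 11.5 CPM with a median of 5.23, T2 spanned 1.36 to 8.71 CPM with a median of 4.27, and T3 spanned 1.54 to 6.58 CPM with a median of 3.69. T0 replicate 6 lay within the range of T2 and T3 and below every library of T1, and replicates 3 and 5 lay above all 31 training libraries.

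**Figure D1:**
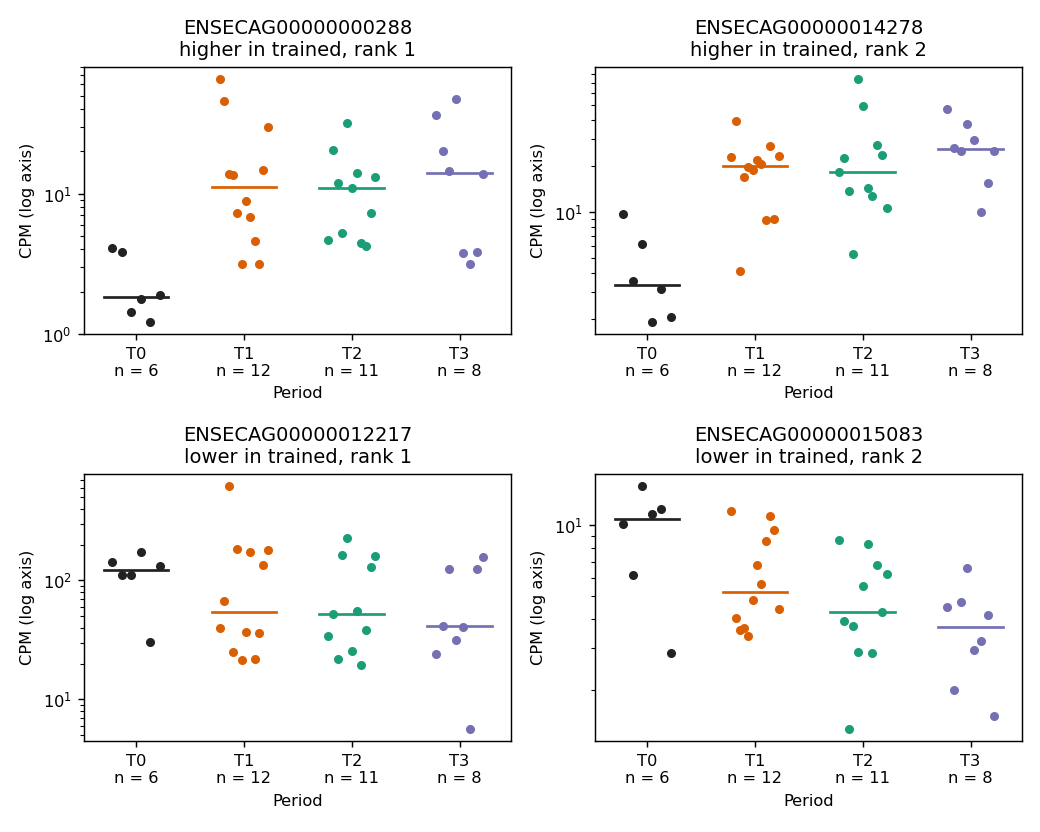
Level of the 2 leading genes of each set in every library, in CPM on log axes, by period; points are libraries in replicate order and lines are period medians. The T0 median of ENSECAG00000000288 was 1.82 CPM against training medians of 11 to 14.1 CPM, while ENSECAG00000012217 shows libraries above and below an empty interval from 67.7 to 111 CPM in every period.

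The gene of the higher set with the highest mean log2 CPM was at rank 58. It had a median of 1057 CPM in T0 (613 to 2113), 2008 CPM in T1 (952 to 3271), 1740 CPM in T2 (793 to 3584) and 2303 CPM in T3 (1504 to 3073). Its T0 libraries overlapped with all 3 training periods. The gene of the lower set with the highest mean log2 CPM was at rank 4. It had a median of 618 CPM in T0 (194 to 1285), 260 CPM in T1 (51.2 to 723), 321 CPM in T2 (209 to 877) and 307 CPM in T3 (120 to 367), again with overlap. Counts were not divided by transcript length, so these levels are not comparable between genes.

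Complete separation of T0 from the 31 training libraries was rare. It was seen in 1 member of the higher set, at rank 49, beside 4 genes (0.0333%) over all genes tested. That gene had 232 to 379 CPM in T0 and 381 to 2850 CPM in the training libraries, so the highest untrained and the lowest training library were almost equal. None of the lower set was separated, beside 3 genes (0.0249%) over all genes tested. Most members were separated by their medians: all 6 untrained libraries lay below the median of the training libraries for 78 members of the higher set and above it for 58 members of the lower set. In the other members 5 or 4 untrained libraries did.

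As a set, the level of a library was taken as the median, over the 100 members, of the member's log2 CPM minus its median in the training libraries. For the genes higher in trained horses this level was -0.32, -0.55, -1.01, -1.06, -1.13 and -0.94 in replicates 1 to 6 of T0. The T1 libraries spanned -0.40 to 0.64, the T2 libraries -0.77 to 0.30 and the T3 libraries -0.34 to 0.44. Replicate 1 of T0 had 5 training libraries at or below it and replicate 2 had 1, the library T2 replicate 4, whereas the other 4 untrained libraries lay below all 31. For the genes lower in trained horses the untrained levels were 0.28, 0.50, 0.74, 0.66, 0.71 and 0.43, and the training levels were -0.82 to 0.26 in T1, -0.26 to 0.33 in T2 and -0.22 to 0.19 in T3. Here 1 training library reached the lowest T0 library, and none reached the second lowest.

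**Figure D2:**
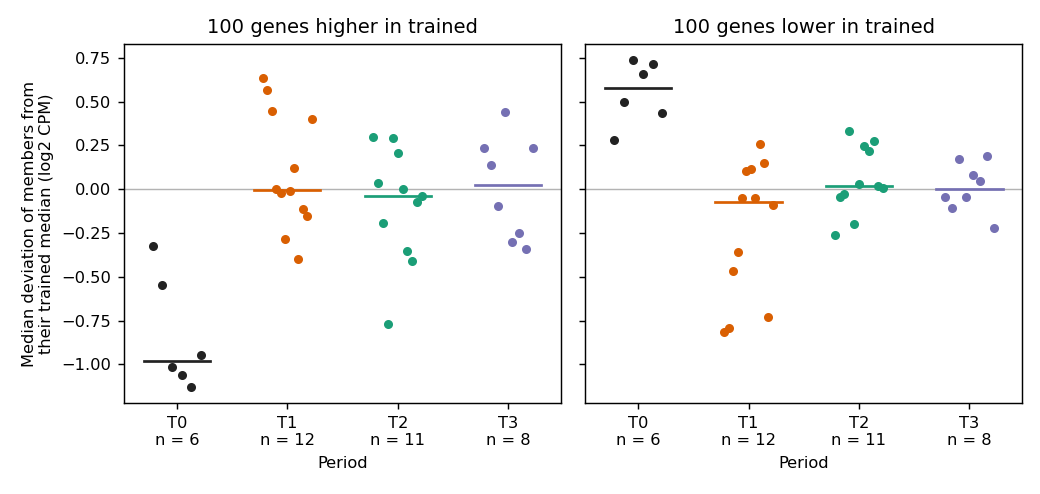
Level of each set in every library by period: the median over 100 members of log2 CPM minus the member's training median, with points for libraries and lines for period medians. T0 lies at -1.13 to -0.32 for the genes higher in trained horses and at 0.28 to 0.74 for the genes lower in trained horses, and the nearest T0 library is reached by 5 training libraries in the left panel and by 1 in the right panel.

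The untrained libraries were not equally far from the trained ones. T0 replicate 1, a horse labelled as a stallion of 2.5 years, lay below every training library in 7 members of the higher set and above every one in 10 members of the lower set. T0 replicate 2, the mare labelled as 3 years old, did so in 13 and 28 members. In replicates 3, 4 and 5 the numbers were 55, 62 and 66 in the higher set and 63, 54 and 62 in the lower set, and in replicate 6 they were 46 and 27. With each T0 library left out in turn, 99 genes of the higher set met the rule again. In the lower set 100, 94, 81, 80, 77 and 93 genes did without replicates 1 to 6, so that this set rested most on replicates 3, 4 and 5, which lay farthest from the training libraries. The lower set reached down to 0.403 log2 units, close to the limit of 0.4, and the higher set only to 0.598. Numbers of genes that meet the rule again, here and below, therefore do not compare the stability of the sets. Without replicates 1 and 2 together, the libraries nearest to the training ones, 98 and 93 genes met the rule, as is likely when the nearest libraries are removed.

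**Figure D3:**
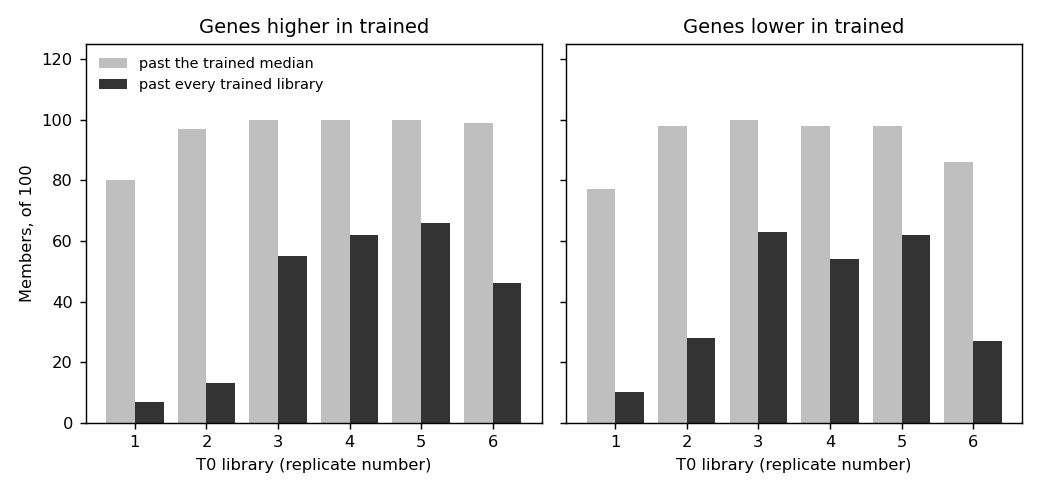
Number of members, of 100 in each set, for which each T0 library lay beyond the median of the training libraries (light bars) or beyond all 31 of them (dark bars), by replicate number. The dark bars are lowest in replicate 1, at 7 and 10 members, and reach 66 in the higher set and 63 in the lower set.

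The share of all counts held by each set was also taken, without TMM scaling and with more weight on members with many counts. The 100 genes higher in trained horses held 0.808% to 1.70% of the counts in T0, 0.920% to 2.38% in T1, 1.03% to 2.4% in T2 and 1.48% to 2.45% in T3, and 19 of 31 training libraries were at or below the highest untrained one. With the share divided by the TMM factor, 7 were. The 100 genes lower in trained horses held 0.470% to 0.661% in T0 and 0.0844% to 0.425% in the training libraries. T0 did not overlap with any training period for the lower set, with or without division by the factor. Both sets were chosen on these same libraries, so a difference in their shares is built in and is given as a description.

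In tests of 2 periods at a time with edgeR (quasi-likelihood F-test, Benjamini-Hochberg adjusted p below 0.05 with at least a 1.3-fold difference), the contrasts with T0 are those the choice of members used. Between T0 and T1, 89 genes of the higher set were called higher in T1, where 28.9% of all tested genes were, and 81 of the lower set were called higher in T0, where 29.2% of all genes were. Between T0 and T2 the numbers were 87 (17% of all genes) and 62 (16.5%). Between T0 and T3 they were 84 (10.4%) and 73 (9.21%). The median log2 fold change of the higher set was 1.0, 0.76 and 0.83 in T1, T2 and T3, and that of the lower set was -0.76, -0.48 and -0.57, while the median over all tested genes was -0.05, 0.04 and -0.01. These counts fell when the log2 TMM factor was added to the fit, from 170 to 53 members of both sets against T1 and from 149 to 1 against T2, while 111 in place of 157 were called against T3. The factors of T0 lay above all of T1 and most of T2, so that there composition and period can hardly be told apart. In a single fit of all 37 libraries, 96 members were called against T2 and 82 against T3, in place of 149 and 157. The share of all genes called was not taken for these other fits. A loss particular to the members thus cannot be told from a general loss of calls.

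Among the training periods few members were called, as the limit on the range of their medians requires. Between T1 and T2, 8 genes of the higher set were called, all lower in T2, and 1 of the lower set, where 32% of all tested genes were called in either direction. Between T2 and T3, 4 and 2 members were called (44% of all genes). Between T1 and T3, 19 and 9 members were called (65% of all genes), 13 of the 19 being lower in T3. T1 held the highest of the 3 training medians for 56 genes of the higher set and the lowest for 62 genes of the lower set. T2, by contrast, held the lowest median for 49 genes of the higher set and the highest for 51 of the lower set, so T1 most often lay farthest from the untrained horses and T2 nearest.

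Sex was not used to choose the members. In a fit of all 37 libraries with period as a term, edgeR called none of the 200 members between stallions and mares, beside 4 of all 12025 genes (0.0333%), and DESeq2 also called none. At an unadjusted p below 0.05 there were 4 members in each set, or 4% of each, against 16.7% of all genes. The difference between stallions and mares had a median of -0.04 log2 units in the higher set, with a range from -0.70 to 0.66, and 0.10 in the lower set, with a range from -0.21 to 0.82. Without both libraries that went against their label, edgeR again called no member, and 5 and 2 members had an unadjusted p below 0.05. ENSECAG00000014278 had the largest positive estimate of the higher set, 0.66 log2 units (standard error 0.27, adjusted p = 0.297 from edgeR), which missed the threshold. Applied to labelled stallions alone, the rule was met again by 87 genes of the higher set and 53 of the lower set. In labelled mares alone, where T0 has 2 libraries, it was met by 32 and 25, and 95 and 99 members kept the sign of their difference. The libraries of both sexes were used in choosing the members, so these numbers are a description and not independent of the choice.

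Library composition, read from the TMM factor, was examined within periods. In T1 a low factor went with a low share of uniquely mapped reads, so the factor may not reflect composition alone. The members were chosen on values scaled by this factor, so its slopes are not independent of the choice and are given as a description. Within periods, edgeR called a slope of expression on the log2 TMM factor in 50 genes of the higher set, 47 of them negative, and in 69 of the lower set, 68 of them positive. Over all 12025 genes, 38.6% had a positive and 31% a negative slope at the same threshold. The median slope was -0.47 log2 units per log2 unit of the factor in the higher set, 0.71 in the lower set and 0.19 over all genes. The genes higher in trained horses thus tended to be low in libraries with a large factor, and the genes lower in trained horses tended to be high there. The mean of the higher set correlated with the log2 factor at 0.34, -0.45, -0.68 and -0.86 within T0, T1, T2 and T3. For the lower set the correlations were 0.001, 0.96, 0.36 and 0.55. The factors of T0 spanned only 1.17 to 1.24, and the part of composition in the differences from T0 was not tested. ENSECAG00000000288 had the steepest fall of the higher set, with a slope of -2.22 (standard error 0.58). ENSECAG00000014278, ENSECAG00000012217 and ENSECAG00000015083 did not pass the threshold, with slopes of 0.05, -0.99 and -0.33.

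The slopes were also fitted in T1 alone and without T1. In T1 alone, 54 of 76 tested genes of the lower set had a positive slope and none a negative slope, beside 36.3% positive among all genes in that fit. In the higher set 25 of 93 tested genes had a negative slope and 4 a positive one, beside 32.9% negative among all genes, so this share was not above that of genes in general. Without T1, 24 genes of the lower set had a positive and 1 a negative slope, beside 23.1% positive among all genes, while the median slope of the set was 0.86. In the higher set 49 genes had a negative and none a positive slope without T1, beside 20.5% negative among all genes. Without the 5 libraries of T1 with low factors, 90 genes of the higher set and 67 of the lower set met the rule again.

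**Figure D4:**
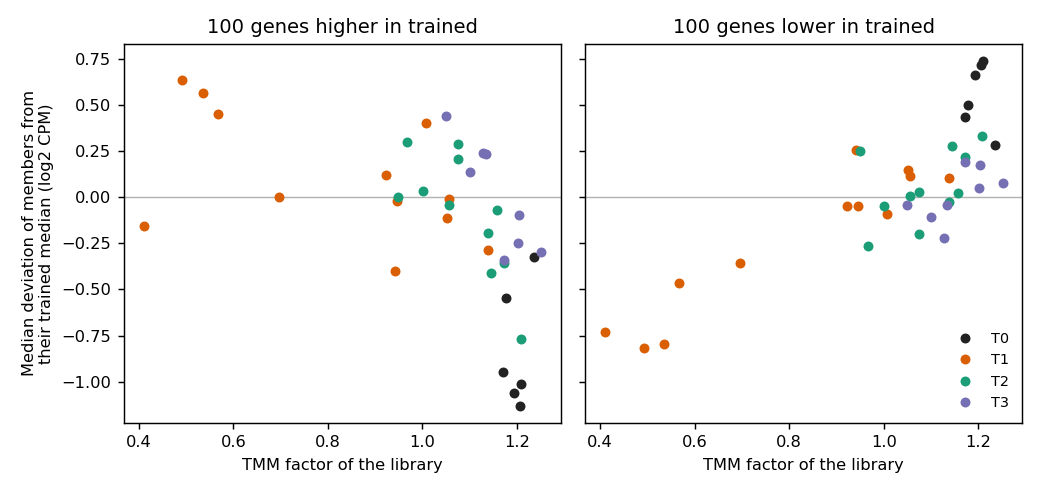
Level of each set (median deviation of members from their training median, log2 CPM) against the TMM factor of the library, with 1 point for each of 37 libraries coloured by period. The T0 points sit at factors of 1.17 to 1.24, at the low end of the left panel and the high end of the right panel, and the 5 libraries of T1 with factors below 0.75 sit at the left.

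**Figure D5:**
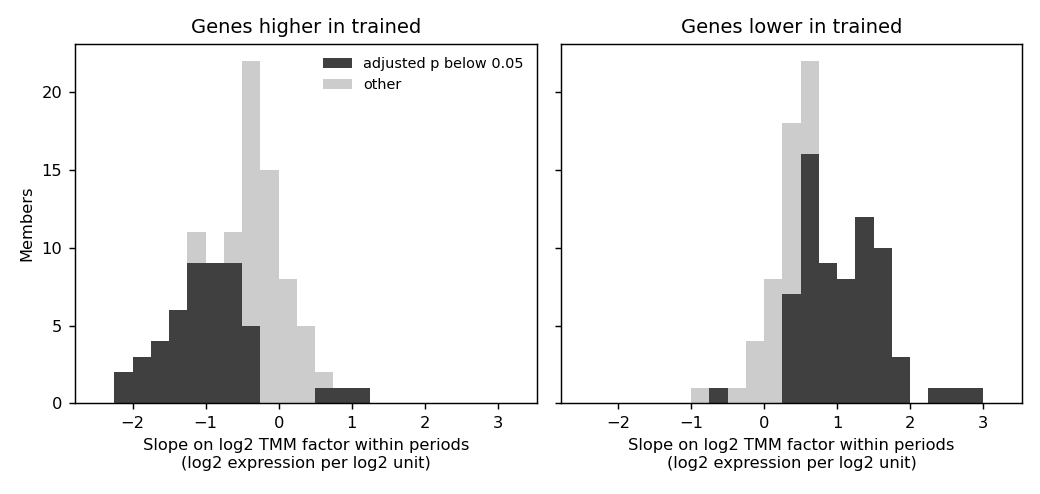
Number of members by their slope on the log2 TMM factor within periods, in steps of 0.25, with genes at an edgeR adjusted p below 0.05 in dark. The medians are -0.47 for the genes higher and 0.71 for the genes lower in trained horses, and 50 and 69 members are dark.

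Training libraries with a factor as large as in T0 were also compared. In 6 training libraries, 2 of T2 and 4 of T3, the factor was at least that of the lowest T0 library. Their level in the higher set was -0.77 to -0.09 with a median of -0.32, which overlapped with replicates 1 and 2 of T0 and lay above the other 4. In the lower set it was 0.05 to 0.33 with a median of 0.18, which overlapped with T0 replicate 1 alone. The median of these 6 libraries minus that of T0 was 0.58 log2 units in the median gene of the higher set and -0.46 in that of the lower set, against 0.04 over all genes. These libraries were used in choosing the members, so the values say nothing about the part of composition, which was not tested.

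Members of a set varied together among libraries of the same period, which the rule did not ask for. After period means were removed, the median correlation between pairs of members over 37 libraries was 0.50 in the higher set and 0.41 in the lower set, against 0.02 between pairs of all tested genes. Pairs of all tested genes were spread to both signs, with quartiles of -0.32 and 0.36. A correlation above 0.5 was found in 16.1% of them, against 49.6% in the higher set and 37.4% in the lower set. Between a gene of the higher set and a gene of the lower set it was -0.32. In the 31 training libraries alone the values were 0.49 and 0.42, so the co-variation did not rest on T0. The pairs share libraries, depth and composition, and these values are given as a description.

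The higher set fell mostly into 1 subgroup and the lower set into several. The lower set had a lower median level, 3.57 against 5.67 log2 CPM, and the part of level in the grouping was not tested. When members with an average correlation of at least 0.5 were joined, 71 genes of the higher set fell into 1 subgroup, led by ENSECAG00000000288. Further subgroups held 10 and 7 genes, and 10 genes stood alone, ENSECAG00000014278 among them. The subgroup of 71 genes had a median level of 6.73 log2 CPM, and its lowest training library was T2 replicate 4. Its slope on the TMM factor was negative in 41 genes and positive in none, beside the 31% of all genes with a negative slope. In the subgroup of 7 genes the slope was positive in 3 and negative in none, beside the 38.6% of all genes with a positive slope, and its lowest level was in T1 replicate 11, at -1.78 log2 units, below all T0 libraries (-1.18 to 0.11). The 10 genes of the second subgroup had a level of -1.10 to -0.34 in T0 and of -1.01 to 0.68 in the training libraries. Their slope was negative in 3 and positive in none, a share near the 31% of all genes.

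The lower set split into 4 larger subgroups of 34, 21, 19 and 7 genes, and 5 genes stood alone, ENSECAG00000012217 among them. All 34 genes of the largest subgroup had a positive slope on the TMM factor, with a median of 1.35, and its level spanned 0.10 to 0.72 in T0 and -1.87 to 0.38 in the training libraries, lowest in T1 replicate 11. In the subgroup of 21 genes 11 slopes were positive, and in that of 19 genes 12 were, with medians of 0.68 and 0.52. In that of 7 genes 6 were, with a median of 0.44. Over all genes 38.6% had a positive slope. ENSECAG00000015083 paired with 1 further gene, whose joint level of -0.67 to 1.62 in T0 lay almost wholly within the training range of -1.37 to 1.45.

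Of the 52 genes that the study printed with a symbol, FTH1, the heavy chain of the iron storage protein ferritin, alone met the limits on level, range and least difference. Its difference of 0.405 log2 units was below that of the 100th member of the higher set. Its level in T0 was 890 ± 99.8 CPM (SD, n = 6). The level was highest after the canter phase, at 1651 ± 375 CPM in T1 (SD, n = 12), and was 1377 ± 305 CPM after the gallop phase (SD, n = 11) and 1217 ± 368 CPM at T3 (SD, n = 8).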

How the data were processed

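Blood RNA of 37 libraries was analysed, grouped by period from the sample labels. The authors trimmed the reads with Flexbar, aligned them to EquCab2 with STAR and the Ensembl 83 annotation, and estimated expected counts with RSEM. The deposited table of all genes holds these expected counts rounded to whole numbers, without normalization. The smaller deposited tables repeat subsets of it and were not used.

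The tests used edgeR 4.0.16 under R 4.3.3 (filterByExpr by period, TMM scaling, log2 CPM with a prior count of 2). The quasi-likelihood F-test compared 2 periods at a time; sex and the log2 TMM factor were tested over all libraries with period as a term. Calls required a Benjamini-Hochberg adjusted p below 0.05 and, except for slopes, a fold change of at least 1.3. The procedure was tested on simulated data. The standard error of an estimate is its size over the root of its F statistic. Subgroups joined members by average linkage of 1 minus the correlation. Alternatives included DESeq2 1.42.0, other scaling, filters, covariates, thinning and libraries left out. Totals of 3810631 to 14932603 counts limit precision at low levels.

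The members and lists were chosen with earlier results of these data known. The genes to name were to be those with a symbol; as none could be paired, the 2 leading members of each set are named by identifier, and the members at ranks 49, 58 and 4 were described after their values were seen. The labels do not tie the training libraries to horses, so p-values measure the spread between libraries, which may be partly within horses.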

Additional observations from a re-analysis of the deposited data

How the results depend on the processing

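The differences of the named genes were least stable in labelled mares alone, where that of ENSECAG00000000288 was 1.09 log2 units and that of ENSECAG00000015083 was 0.03. With period means, ENSECAG00000012217 fell from 1.21 to 0.52 and ENSECAG00000015083 from 1.01 to 0.52, and in labelled stallions alone ENSECAG00000012217 was at 0.71. None of the 4 changed direction. The 200 members met the rule again in 117 genes with period means, 57 in labelled mares alone, 103 with a range of at most 0.3, 127 with a difference of at least 0.6 and 129 with libraries thinned to the smallest total; the other settings were within 1.5 times of 200. Leaving out each T0 replicate gave 176 to 199 members, and 144 to 175, 107 to 163 and 111 to 177 members called against T1, T2 and T3. Without T0 replicates 1 and 2, an alternative chosen after seeing the data, these counts were 160, 159 and 173, and without the 5 T1 libraries of low TMM factor 148 were called against T1.

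With the log2 TMM factor as a covariate, 53 (T0:T1), 1 (T0:T2), 0 (T1:T2) and 24 (T2:T3) members were called, in place of 170, 149, 9 and 6, while T0:T3 gave 111 in place of 157. With all libraries in one fit, 96 (T0:T2), 82 (T0:T3), 23 (T1:T2) and 3 (T2:T3) were. T1:T2 gave 16 with DESeq2 and 3 with no filter, and T1:T3 gave 16 with no filter in place of 28. Slopes on the TMM factor were called in 74 members without T1 and, with a fold threshold per SD chosen after seeing the data, in 41, in place of 119. The cause of these changes was not tested. The share of all genes called was not taken for any alternative fit between periods or for the slope with a fold threshold.

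Numbers in the sample titles did not pair the libraries consistently. Of 45 pairs with the same number, 20 correlated over 0.1, the range was -0.35 to 0.52, and the labelled sexes differed in 23. Pairs with different numbers were not compared. With the number as a replicate block, 174, 142 and 137 members were called against T1, T2 and T3, 19 in T1:T2, 8 in T2:T3, 52 in T1:T3, 0 for sex and 94 for the slope. The share of all genes called was not taken for these fits, so the counts cannot be set against genes in general.

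Depth limits the low members: with a median total of 10611594 counts, 1 CPM rests on about 10.6 counts.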

Other observations

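Some genes that the study printed by symbol, and that were not eligible as members, varied with the sets within periods. They were chosen here after their values were seen, and the correlations over 37 libraries, after period means were removed, are a description. CRYGS, a crystallin gene, had a correlation of 0.71 with the level of the genes higher in trained horses and of -0.72 with that of the genes lower in trained horses. ANKZF1, which acts in the quality control of stalled ribosomes, had 0.67 and -0.74. LARP4, an RNA-binding protein that protects poly(A) tails, had -0.69 and 0.73, and AGPAT5, an acyltransferase of phospholipid synthesis, had -0.70 and 0.57. FTH1 had 0.79 with the higher set and -0.25 with the lower set. All of these except FTH1 differed too much between the training periods to be members. In T0, T1, T2 and T3 in turn, the median log2 CPM of CRYGS was 2.27, 3.74, 3.32 and 2.4, and that of LARP4 was 4.31, 2.86, 3.17 and 4.35.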
